A study of Drosophila melanogaster with 72 samples.

Results

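Phototransduction, the conversion of absorbed light into an electrical signal in the compound eye, was followed here through 10 genes: the opsins ninaE, Rh3, Rh4 and Rh6, the arrestins Arr1 and Arr2, the signalling proteins norpA, inaC and ninaC, and the channel gene trp. They were taken by FlyBase symbol from a list of photoreceptor genes, out of 13925 genes present in all 3 deposited count tables, and were chosen by their levels and polysome ratios over all 9 groups of the study. Those levels and ratios are therefore given as a description, with no test. Where the libraries of the groups did not overlap, the number of members is given beside the share of all genes tested that did the same, and nothing is read from either. All 10 were found, and all 10 passed the filter on low counts in every comparison.

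In fly photoreceptors a photon isomerises rhodopsin, an opsin bound to its chromophore. Rhodopsin activates a heterotrimeric Gq protein, which activates the phospholipase C encoded by norpA, and the cascade ends in the opening of the cation channels TRP and TRPL. Arrestins stop the signal by binding activated rhodopsin, and the scaffold INAD holds phospholipase C, TRP and the protein kinase C encoded by inaC together in the rhabdomere. The outer photoreceptors R1 to R6 of every eye unit use the opsin of ninaE (Rh1), while the inner cells R7 and R8 divide the eye units into 2 kinds: Rh3 in R7 is paired with Rh5 in R8 (pale units), and Rh4 in R7 with Rh6 in R8 (yellow units).

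Whole female flies were ground, and poly(A) RNA was sequenced from total RNA and from the monosome and polysome fractions of a sucrose gradient, in 72 libraries. At 15 d the groups were Lpp[TS]>Lsp2 and Lpp[TS]>Rheb with Lpp[TS]>w1118 as their reference (2 replicates each), and Thor[2];Lsp2[A10] with Lsp2[A10] as its own, and likewise Thor[2];Lsp2[B14] with Lsp2[B14] (3 replicates in each group). Both alleles without Thor[2] were also sampled at 2 to 3 d (young, 3 replicates in each group). By fly notation the name after the sign is what Lpp[TS] expresses, Lpp being a lipoprotein gene used to drive expression in the fat body, and the driver is also in the w1118 reference. Lsp2 encodes a larval serum protein, Rheb an activator of mTORC1, and Thor the translation repressor 4E-BP. The labels do not say which of the Lsp2 alleles is the control, how many flies were pooled, or what w1118 adds, so Lsp2[A10] is set over Lsp2[B14] throughout. The labels call the replicates biological without saying what was replicated; p-values measure the spread between these samples.

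Library totals ran from 15.3 to 39.7 M counts for total RNA, 5.07 to 21.3 M in monosome libraries and 3.13 to 31.3 M in polysome libraries, and every level below is CPM, a count over the library total times 1000000. In total RNA, Lsp2 stood at 6609 to 7686 CPM in Lpp[TS]>Lsp2, against 4.49 to 5.23 CPM in Lpp[TS]>w1118. It was high in Lpp[TS]>Rheb too, at 2268 and 2578 CPM. At 15 d, Lsp2 stood at 0.551 to 2.45 CPM in Lsp2[A10], against 2.3, 4.63 and 52.1 CPM in Lsp2[B14]. In young flies it stood at 1.63 to 3.16 CPM in Lsp2[A10], against 5.2 to 10.8 CPM in Lsp2[B14]. With Thor[2] the alleles overlapped, at 0.108 to 2.91 CPM, against 0.328 to 3.6 CPM. Rheb stood at 879 to 967 CPM in Lpp[TS]>Rheb, against 125 to 126 CPM in Lpp[TS]>w1118. Thor RNA did not separate the libraries labelled Thor[2] (253 to 364 CPM) from the Lsp2 allele libraries without the label at 15 d (221 to 291 CPM), so Thor[2] below means the label. Eye tissue was sampled in every group, with all 7 genes of the photoreceptor structure and transmitter list counted. Genes of other cell types differed between groups in part. The eggshell gene Cp36 stood at 0.149 to 6.42 CPM in the Lpp[TS] lines and at 877 to 1972 CPM in the allele lines. From the same ovary and eggshell list, nanos, osk, bcd, grk and vas overlapped between these lines. For nanos the levels were 278 to 492 CPM in the Lpp[TS] lines, against 227 to 348 CPM in the allele lines. The Lpp[TS] and allele lines are in separate deposited tables. The white gene w, an eye pigment transporter, stood at 31.3 to 85.6 CPM in the Lpp[TS] lines and at 0.764 to 2.75 CPM in the allele lines. In whole flies, fewer photoreceptors and less RNA per photoreceptor cannot be told apart.

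Per kilobase of the longest annotated transcript, ninaE led the members in all 9 groups, followed by Arr2 and then Arr1. In Lpp[TS]>w1118, ninaE averaged 1557 CPM per kb, Arr2 546 and Arr1 143. The other members lay far lower in that group, from 51.5 CPM per kb for Rh3 to 11.98 for Rh6. Neighbours in this lower part of the order often lay within each other's spread: in Lsp2[A10] at 15 d, Rh4 averaged 52.6 ± 4.44 CPM per kb and Rh3 51.0 ± 2.72 (SD, n = 3), and norpA averaged 27.1 ± 1.06 and ninaC 27.0 ± 0.755. The last place was held by Rh6 in 3 groups, by inaC in 4 and by norpA in both Thor[2] groups.

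**Figure D1:**
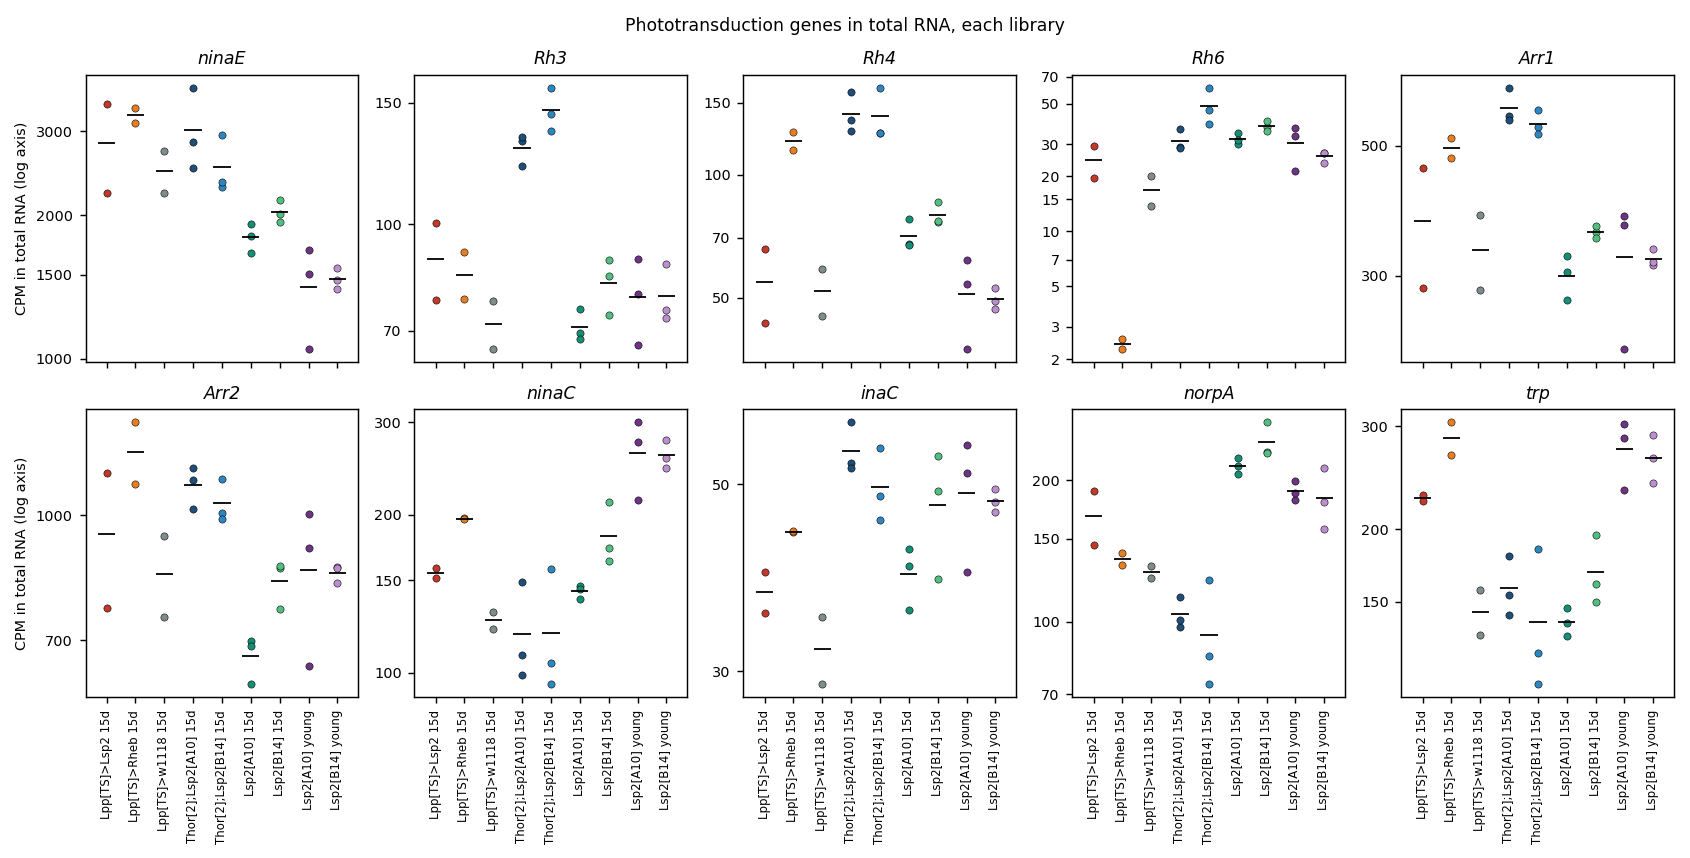
Level of each gene in total RNA, in CPM on a log axis, for the 24 total RNA libraries in 9 groups; each point is a library and each line a group mean. Rh6 stands near 2 CPM in both Lpp[TS]>Rheb libraries and at 13.8 CPM or more in every other library, and ninaC and trp stand higher in young flies than at 15 d in the Lsp2 alleles.

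The opsins spanned the widest and some of the narrower ranges. The mean level of ninaE, the opsin of R1 to R6 (FBgn0002940, 3R, 19886255 to 19888206, minus strand, BDGP6.54), ran from 1416 CPM in young Lsp2[A10] to 3238 CPM in Lpp[TS]>Rheb, 2.29-fold. Rh3, an ultraviolet-sensitive opsin of R7 (3R, 20081060 to 20082450, minus strand), ran over 2.06-fold and Rh4, the other ultraviolet-sensitive opsin of R7 (3L, 16852527 to 16862517, minus strand), over 2.85-fold. Rh6, a green-sensitive opsin of R8 (3R, 15483158 to 15484699, plus strand), ran over 20.2-fold, and Lpp[TS]>Rheb alone set its lower end.

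In Lpp[TS]>Rheb the inner-cell opsins stood in another proportion than in the driver reference. Rh6 stood at 2.56 and 2.26 CPM in Lpp[TS]>Rheb total RNA, against 13.8 and 20.0 CPM in Lpp[TS]>w1118, and the lowest library still held 56 Rh6 counts. Its partner in R7, Rh4, stood at 115 and 127 CPM in Lpp[TS]>Rheb, against 45.0 and 58.9 CPM in Lpp[TS]>w1118. In the yellow-unit pair Rh6 thus stood lower and Rh4 higher in both Rheb replicates than in both reference replicates. The log2 change was −2.74 ± 0.31 for Rh6 and 1.27 ± 0.24 for Rh4 (SE). Rh3, the R7 opsin of pale units, stood at 77.8 and 91.1 CPM, against 65.8 and 77.4 CPM in Lpp[TS]>w1118 (0.29 ± 0.18).

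Rh5, the blue-sensitive R8 opsin of pale units (2L, 12008153 to 12009832, plus strand), was not among the 10 listed genes and was tested. Rh5 too was listed with earlier results of these data known, so its p-value is not independent support. It stood at 43.4 and 40.0 CPM in Lpp[TS]>Rheb, against 10.3 and 13.8 CPM in Lpp[TS]>w1118. It rose by 1.85 ± 0.26 log2 units, with an adjusted p of 0.039 by edgeR's quasi-likelihood test with Benjamini-Hochberg adjustment over 12030 genes. The call was lost when any 1 of the 4 libraries was left out (adjusted p 0.238 to 0.423) and with the replicate number as a block (0.0656), while the log2 value stayed between 1.65 and 2.06. In DESeq2 the adjusted p was 2.63e-07. The cause of the differing Rh5 and Rh6 levels was not tested.

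The ratio of Rh6 to Rh5, the opsins of the yellow and the pale R8 cells, was 0.0590 and 0.0567 in Lpp[TS]>Rheb total RNA, against 1.34 and 1.45 in Lpp[TS]>w1118. It was 1.96 and 1.97 in Lpp[TS]>Lsp2, so the low ratio stood in 1 of the 3 Lpp[TS] lines. The polysome fraction gave the same order, with 0.0567 and 0.0641 in Lpp[TS]>Rheb, against 0.965 and 1.47 in Lpp[TS]>w1118. In R7 the ratio of Rh4 to Rh3 was 1.48 and 1.39 in Lpp[TS]>Rheb, against 0.684 and 0.761 in Lpp[TS]>w1118.

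In the allele lines the same ratios varied less. Rh6 over Rh5 averaged 0.761 ± 0.0420 in Thor[2];Lsp2[A10], against 2.63 ± 0.661 in Lsp2[A10] (SD, n = 3 each). With the other allele it averaged 1.72 ± 0.422 in Thor[2];Lsp2[B14], against 3.67 ± 0.378 in Lsp2[B14]. The 3 Thor[2];Lsp2[A10] libraries all lay below the 3 Lsp2[A10] libraries, which held 1.92 to 3.24. Rh4 over Rh3 averaged 0.998 in Lsp2[A10] at 15 d, against 0.646 in young flies, and for Lsp2[B14] 0.975 at 15 d, against 0.632 in young flies, and no young library reached the lowest value at 15 d.

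**Figure D2:**
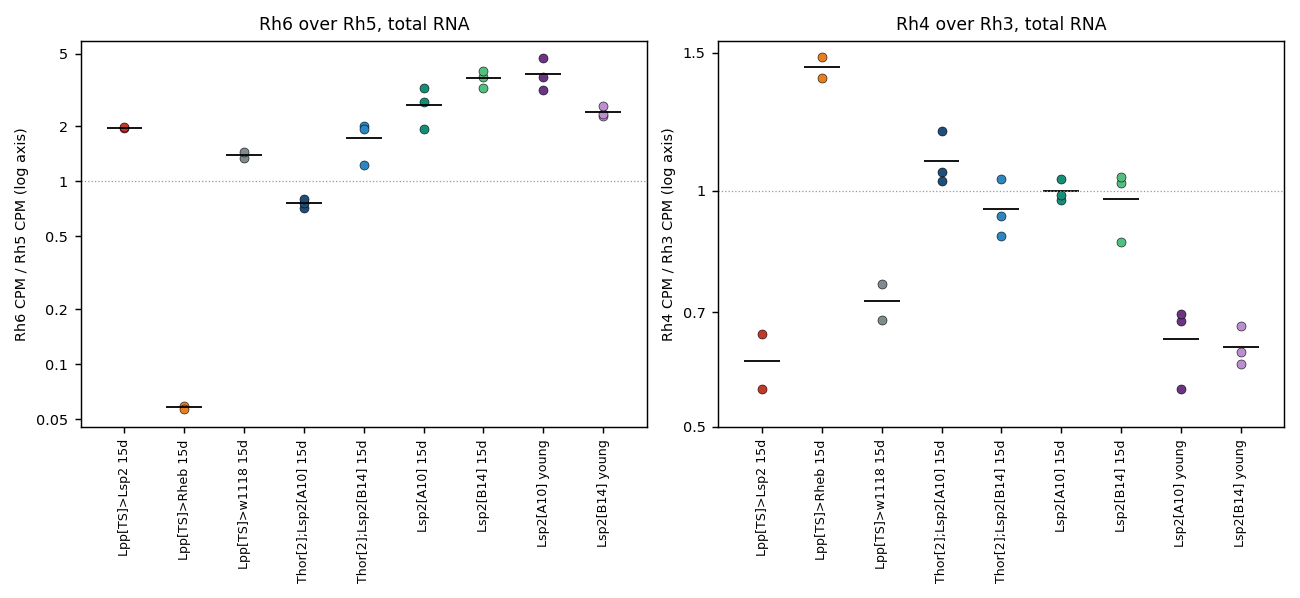
Ratio of Rh6 to Rh5 (left) and of Rh4 to Rh3 (right) in total RNA, each on a log axis, by group; each point is a library, each solid line a group mean and the dotted line a ratio of 1. Lpp[TS]>Rheb lies near 0.058 on the left, where all other groups lie above 0.7, and above 1.3 on the right, where young flies lie below 0.7.

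The other members stood higher in Lpp[TS]>Rheb as well. TRP, the main light-activated channel (3R, 29914521 to 29920289, minus strand), had 268 and 304 CPM of trp in Lpp[TS]>Rheb, against 132 and 157 CPM in Lpp[TS]>w1118 (1.04 ± 0.14). ninaC, which encodes a myosin with a kinase domain that binds calmodulin (2L, 7377702 to 7384344, plus strand), had 197 and 196 CPM, against 121 and 130 CPM (0.70 ± 0.13). The arrestin genes Arr1 (2L, 18078269 to 18081307, plus strand) and Arr2 (3L, 8647261 to 8648936, minus strand) differed by 0.63 ± 0.26 and 0.55 ± 0.23, and inaC (2R, 16898535 to 16901575, plus strand) by 0.52 ± 0.15. Smaller values were those of ninaE, with 3124 and 3351 CPM against 2223 and 2721 CPM (0.44 ± 0.23), and of norpA, with 132 and 140 CPM against 124 and 131 CPM (0.15 ± 0.16). In 9 of the 10 genes both Rheb libraries lay above both Lpp[TS]>w1118 libraries, and Rh6 lay below; of all genes tested, 24% lay above and 42.6% below without overlap. The median log2 change was 0.54 over the members and −0.04 over all genes tested. Of all genes tested, 1.53% passed the test.

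Of the 32 other phototransduction genes, 30 passed the filter (Xport-A and Xport-B, which overlap each other, did not). Apart from Rh5 none passed the test in Lpp[TS]>Rheb against Lpp[TS]>w1118, although 8 of the 30 had an unadjusted p under 0.05 and DESeq2 called 3. Their median was 0.23. inaD, the scaffold gene, differed by 0.60 ± 0.13 (adjusted p 0.121) and ninaA, the chaperone of Rh1, by 1.08 ± 0.31 (adjusted p 0.222). All exons of ninaA overlap a gene on the opposite strand, so its counts are uncertain. The 7 photoreceptor structure and transmitter genes, of which 0 passed the test, summed to 79.9 to 95.8 CPM in Lpp[TS]>Rheb, against 55.7 to 61.5 CPM in Lpp[TS]>w1118, and the 12 pan-neuronal genes (0 called) to 384 to 467 CPM, against 362 to 389 CPM. Outside the eye, the 4 glia genes summed to 354 to 377 CPM, against 255.5 to 268.7 CPM. The 7 clock genes summed to 714 to 762 CPM, against 506 to 529 CPM. Muscle genes were lower, at 1382 to 1615 CPM, against 1664 to 1689 CPM. Corneal lens genes overlapped, at 134 to 171 CPM, against 140 to 149 CPM. The 5 eye pigment genes summed to 104 to 121 CPM, against 52.8 to 60.8 CPM. Most of each sum was w alone, at 66.9 and 85.6 CPM, against 32.4 and 31.3 CPM. The white gene rose by 1.31 ± 0.15 (edgeR adjusted p 0.0199). It also stood above the reference in Lpp[TS]>Lsp2, at 45.8 and 46.5 CPM. The source of the w reads was not tested. The part of these in the members' values was not tested.

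Lpp[TS]>Lsp2 was set against the same reference libraries. The largest value was that of trp, with 228 and 224 CPM in Lpp[TS]>Lsp2, against 132 and 157 CPM in Lpp[TS]>w1118 (0.59 ± 0.14). Both Lsp2 libraries lay above both reference libraries for trp and 4 other members, and the groups overlapped for the remaining 5; 19.1% of all genes lay above without overlap. For ninaE they were 3429 and 2231 CPM, against 2223 and 2721 CPM, so that 1 Lsp2 library lay above and 1 between the reference libraries. The median over members was 0.21, beside 0.08 over all genes tested. Among 4 classes of transcript length, the median of all genes was −0.14 in the shortest and 0.23 in the longest. The longest class holds trp, and the part of transcript length was not tested. Of all genes tested, 0.0166% passed the test (2 of 12030). Of the 30 other genes of the pathway edgeR called 0, with 2 at an unadjusted p under 0.05, and DESeq2 called 0. Without the first Lpp[TS]>Lsp2 library edgeR called 11 of them and without the second 1, and leaving out a library took the median of the members to between 0.04 and 0.42.

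Between the Lsp2 alleles at 15 d, all 10 members had lower means in Lsp2[A10] than in Lsp2[B14], by 0.21 to 0.40 log2 units. Arr2 stood at 699, 689 and 618 CPM in Lsp2[A10], against 860, 864 and 765 CPM in Lsp2[B14], and no library of one allele reached the other (−0.36 ± 0.08). Arr1 stood at 304, 324 and 272 CPM, against 356, 365 and 349 CPM (−0.30 ± 0.08), again without overlap. In all, 7 members were lower without overlap, and the groups overlapped for Rh3, Rh4 and inaC; 7.76% of all genes were lower without overlap. The median was −0.29, beside 0.02 over all genes tested. Of all genes tested, 2.21% passed the test.

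The other genes of the pathway fell in 3 of 30 cases at that age. Gbeta76C, the eye-specific G protein beta subunit, fell by 0.39 ± 0.09 (adjusted p 0.04), Pld, a phospholipase D, by 0.51 ± 0.11 (0.0308), and santa-maria, a scavenger receptor used in carotenoid uptake, by 0.79 ± 0.12 (0.00278; edgeR quasi-likelihood test). The count was 1 with library totals in place of TMM factors, and 1 when Lsp2[A10] and Lsp2[B14] were fitted without the Thor[2] libraries. It was also 1 without Lsp2[A10] replicate 1, Lsp2[A10] replicate 2 or Lsp2[B14] replicate 2. Corneal lens genes were lower in the same comparison, with 2 of 3 called. They summed to 53.6 to 69.9 CPM in Lsp2[A10], against 97.7 to 115 CPM in Lsp2[B14]. Outside the eye, muscle genes summed to 1306 to 1514 CPM, against 1518 to 1653 CPM, also without overlap. Pan-neuronal genes (429 to 528 CPM, against 439 to 608 CPM) and glia genes (292 to 369 CPM, against 338 to 390 CPM) overlapped, with lower medians in Lsp2[A10]. The part of these lists in the result was not tested.

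In young flies the same alleles overlapped for all 10 members, and 11% of all genes did not overlap. ninaE stood at 1047, 1508 and 1692 CPM in young Lsp2[A10], against 1547, 1401 and 1460 CPM in young Lsp2[B14] (−0.05 ± 0.18). The first Lsp2[A10] replicate held the lowest level of 9 members among these 6 libraries. The median over members was 0.03. The test called 0.332% of all genes, and edgeR called 0 of 30 other phototransduction genes, with 3 at an unadjusted p under 0.05 and 1 called by DESeq2; without young Lsp2[B14] replicate 3 edgeR called 1. Whether the allele difference itself changed with age was not tested.

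Within the Thor[2] background the allele values scattered around 0, with a median of 0.10. Rh6 stood lower, at 28.8, 28.6 and 36.1 CPM in Thor[2];Lsp2[A10], against 38.6, 46.3 and 61.2 CPM in Thor[2];Lsp2[B14] (−0.61 ± 0.13). Rh3 lay lower without overlap too, and the other 8 members overlapped; 10.7% of all genes were lower without overlap, and 4.16% passed the test. Of the other pathway genes 3 of 30 rose: ninaD, a class B scavenger receptor needed for carotenoid uptake, by 1.20 ± 0.25 (adjusted p 0.0164), Pld by 0.72 ± 0.11 (0.00252) and santa-maria by 0.57 ± 0.11 (0.0118).

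In the libraries labelled Thor[2] ninaE, Rh3, Rh4 and the arrestin genes stood higher and norpA lower, with either Lsp2 allele. Arr1 stood at 562, 554 and 629 CPM in Thor[2];Lsp2[A10], against 304, 324 and 272 CPM in Lsp2[A10] (1.16 ± 0.09), and at 539, 525 and 575 CPM in Thor[2];Lsp2[B14], against 356, 365 and 349 CPM in Lsp2[B14] (0.75 ± 0.09). Rh3 stood at 122, 132 and 134 CPM in Thor[2];Lsp2[A10], against 75.2, 69.6 and 68.1 CPM in Lsp2[A10] (1.07 ± 0.09). Rh4 stood at 128, 136 and 160 CPM in Thor[2];Lsp2[A10], against 77.8, 67.7 and 67.2 CPM in Lsp2[A10] (1.20 ± 0.11). For these 3 genes the lowest Thor[2] library lay above the highest library without the label, in both alleles. In Thor[2];Lsp2[B14] against Lsp2[B14], Rh3 differed by 0.97 ± 0.09 and Rh4 by 0.93 ± 0.11.

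ninaE and Arr2 also stood higher without overlap in both alleles. ninaE stood at 2844, 2512 and 3704 CPM in Thor[2];Lsp2[A10], against 1918, 1807 and 1663 CPM in Lsp2[A10] (0.95 ± 0.13), and differed by 0.45 ± 0.13 in Thor[2];Lsp2[B14]. Arr2 differed by 0.91 ± 0.08 and 0.46 ± 0.08 in the same order of alleles. Rh6, alone among the 4 opsins listed, overlapped in both alleles (0.16 ± 0.14 and 0.50 ± 0.13), and with library totals its value in Lsp2[A10] was −0.04.

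norpA ran the other way. The gene for the phospholipase C (X, 4322626 to 4365408, plus strand) stood at 97.5, 101 and 113 CPM in Thor[2];Lsp2[A10], against 206, 223 and 214 CPM in Lsp2[A10] (−0.85 ± 0.14). It stood at 73.6, 84.6 and 122 CPM in Thor[2];Lsp2[B14], against 229, 265 and 228 CPM in Lsp2[B14] (−1.24 ± 0.14). Every Thor[2] library lay below every library without the label. ninaC stood at 95.1, 104 and 158 CPM in Thor[2];Lsp2[B14], against 173, 211 and 163 CPM in Lsp2[B14] (−0.49 ± 0.17), and overlapped in Lsp2[A10] (−0.07 ± 0.17). trp overlapped in both alleles.

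**Figure D3:**
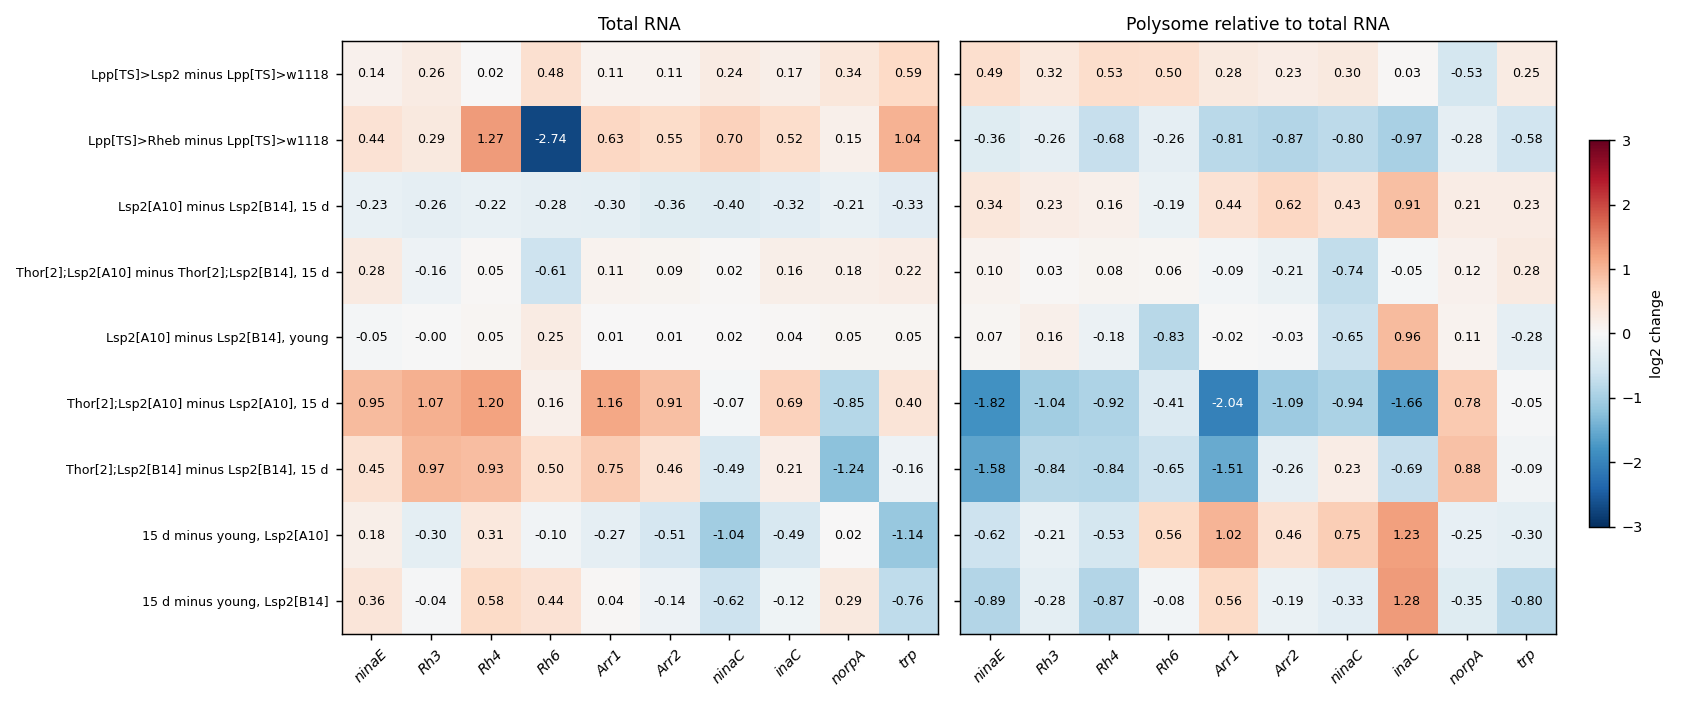
Log2 change of each gene (columns) in 9 comparisons (rows), in total RNA on the left and in the polysome relative to the total RNA level on the right; red is higher and blue lower in the group named first. Rh6 in Lpp[TS]>Rheb (−2.74) is the darkest cell on the left, and the Thor[2] rows hold the lowest polysome values of ninaE and Arr1.

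Over all genes the changes ran with transcript length. In Thor[2];Lsp2[A10] against Lsp2[A10] the median change of all genes was 0.81 in the shortest of 4 length classes of about equal gene number, then 0.26, −0.19 and −0.72 towards the longest. In Thor[2];Lsp2[B14] against Lsp2[B14] the medians were 0.90, 0.30, −0.23 and −0.92. ninaE, Rh3, Rh4, Rh6 and Arr2 lie in the second class (1229 to 1986 bases), Arr1 and inaC in the third and trp, ninaC and norpA in the longest. Against its own class each of Arr1 (2327 bases), inaC (2351 bases), ninaC (5295 bases) and trp (4149 bases) stood higher in both alleles, and norpA (7910 bases) stood lower. The part of transcript length in the members' values was not tested.

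Of the pan-neuronal genes, 7 of 12 fell with Lsp2[A10] and 11 of 12 with Lsp2[B14], with no gene rising. Of all genes tested, 66.8% and 69.2% were called in these comparisons. All pan-neuronal genes but Snap25 (2233 bases) lie in the longest class. Their summed level was 236 to 322 CPM in Thor[2];Lsp2[A10], against 429 to 528 CPM in Lsp2[A10], and 203 to 320 CPM in Thor[2];Lsp2[B14], against 439 to 608 CPM in Lsp2[B14]. Of the 7 photoreceptor structure and transmitter genes, 2 rose with Lsp2[A10] and 2 fell with Lsp2[B14]. Of the 6 muscle genes 5 rose in each allele and 1 fell with Lsp2[B14], with summed levels of 2215 to 2609 CPM in Thor[2];Lsp2[A10], against 1306 to 1514 CPM in Lsp2[A10], and 1809 to 2109 CPM in Thor[2];Lsp2[B14], against 1518 to 1653 CPM in Lsp2[B14]. Of the 3 corneal lens genes (798 to 2261 bases), 2 rose in each allele. They summed to 111 to 137 CPM in Thor[2];Lsp2[A10], against 53.6 to 69.9 CPM in Lsp2[A10]. In Thor[2];Lsp2[B14] they summed to 156 to 160 CPM, against 97.7 to 115 CPM in Lsp2[B14]. Of the 5 eye pigment genes 3 rose with Lsp2[A10], while 2 rose and 1 fell with Lsp2[B14]. They summed to 45.2 to 49.2 CPM in Thor[2];Lsp2[A10], against 23.1 to 32.6 CPM in Lsp2[A10], and to 35.1 to 44.0 CPM in Thor[2];Lsp2[B14], against 28.0 to 31.7 CPM in Lsp2[B14]. The part of these in the members' values was not tested, nor was that of transcript length in the lists. Over the members the median was 0.80 with Lsp2[A10] and 0.45 with Lsp2[B14], beside 0.04 and 0.03 over all genes. With Lsp2[A10] 6 members were higher and 1 lower without overlap, where 28.7% of all genes were higher, 43% lower and 66.8% called. With Lsp2[B14] 5 were higher and 2 lower, where 31.3% of all genes were higher, 40.6% lower and 69.2% called.

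**Figure D4:**
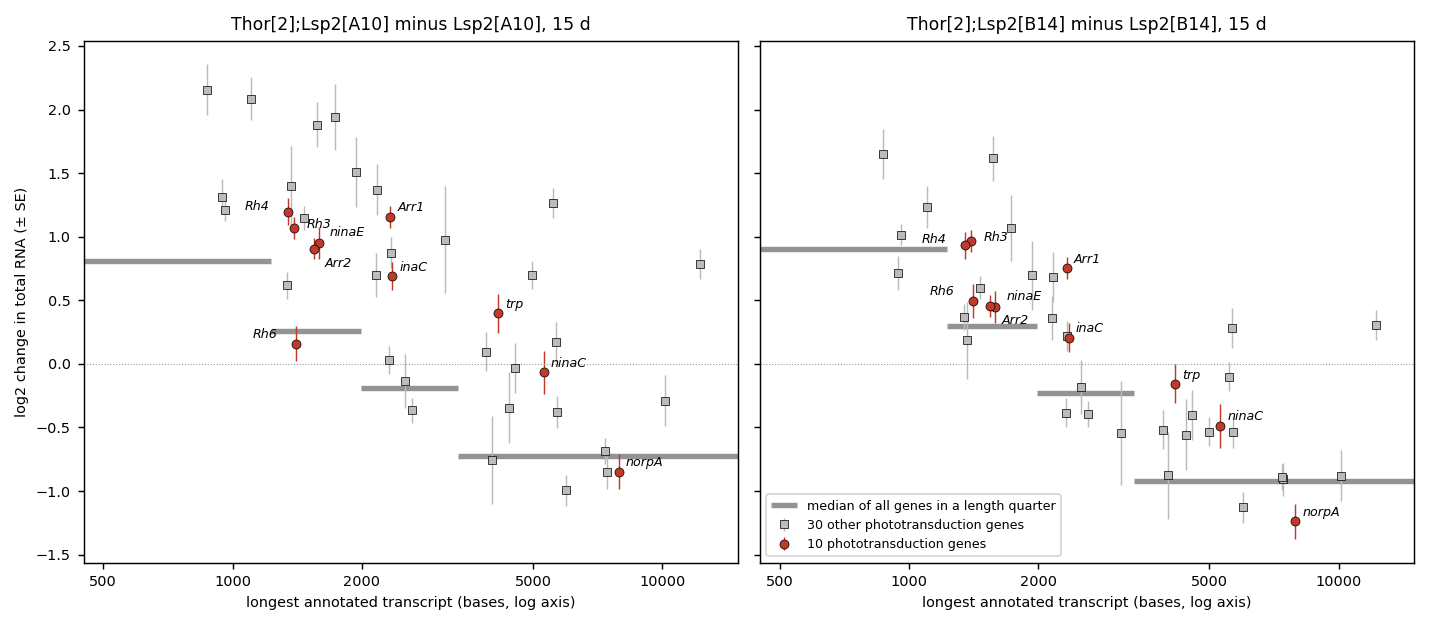
Log2 change in total RNA (± SE) of the 10 genes (circles, named) and of 30 other phototransduction genes (squares) against the length of the longest annotated transcript on a log axis, for Thor[2];Lsp2[A10] against Lsp2[A10] (left) and Thor[2];Lsp2[B14] against Lsp2[B14] (right), both at 15 d. Grey bars give the median over all genes of each of 4 length classes, which runs from 0.81 to −0.72 on the left and from 0.90 to −0.92 on the right; norpA, the longest member, is the lowest.

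Among the other 30 genes of the pathway, 16 rose and 5 fell with Lsp2[A10], and 11 rose and 10 fell with Lsp2[B14]. Thus 21 of 30 were called in each allele, near the 66.8% and 69.2% called of all genes. The genes that rose most in Thor[2];Lsp2[A10] were ninaA (2.15 ± 0.20, adjusted p 1.6e-06), the retinol dehydrogenase gene rdhB (2.08 ± 0.17, 7.24e-07), ninaD (1.94 ± 0.26, 2.43e-05) and Rh5 (1.88 ± 0.18, 1.65e-06). The same genes rose in Thor[2];Lsp2[B14], by 1.65 ± 0.20, 1.24 ± 0.17, 1.07 ± 0.26 and 1.62 ± 0.18. Rh5 stood at 40.2, 37.4 and 45.2 CPM in Thor[2];Lsp2[A10], against 11.1, 10.6 and 16.4 CPM in Lsp2[A10], so the R8 opsin of pale units rose where Rh6 overlapped. Gbeta76C rose by 1.15 ± 0.09 and 0.60 ± 0.09 and Ggamma30A, the G protein gamma subunit of the eye, by 0.79 ± 0.12 and 0.31 ± 0.12. Lower in both alleles were rdgB, a phosphatidylinositol transfer protein of photoreceptors (−0.85 ± 0.13 and −0.91 ± 0.13), and inaE, a diacylglycerol lipase (−0.99 ± 0.12 and −1.13 ± 0.12).

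The difference between both Thor[2] effects was tested as an interaction for the other pathway genes. It was called for 4 of 30, all higher in Lsp2[A10]: santa-maria (1.36 ± 0.16, adjusted p 0.000662), Pld (1.23 ± 0.16, 0.00113), inaD (0.65 ± 0.17, 0.0476) and Gbeta76C (0.55 ± 0.13, 0.029). The count was 2 with library totals and ran from 2 to 7 when single libraries were left out: 7 without Thor[2];Lsp2[B14] replicate 3, and 2 without replicate 1 or 3 of Thor[2];Lsp2[A10], replicate 2 of Thor[2];Lsp2[B14], replicate 3 of Lsp2[A10] or replicate 2 of Lsp2[B14]. Of the members, 9 of 10 had a positive difference, with a median of 0.41, and Rh6 was the negative one (−0.34 ± 0.19); 4.1% of all genes tested were called. These 4 groups enter several of the comparisons above, which therefore share libraries.

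Between 15 d and young flies, ninaC and trp stood lower at 15 d in both alleles. trp stood at 147, 138 and 131 CPM at 15 d in Lsp2[A10], against 233, 286 and 303 CPM in young flies (−1.14 ± 0.12), and at 150, 195 and 161 CPM at 15 d in Lsp2[B14], against 290, 265 and 240 CPM (−0.76 ± 0.12). ninaC stood at 146, 144 and 138 CPM at 15 d in Lsp2[A10], against 213, 275 and 300 CPM in young flies (−1.04 ± 0.13), and differed by −0.62 ± 0.12 in Lsp2[B14]. For both genes every library at 15 d lay below every young library of its allele. Rh4 and norpA lay higher at 15 d without overlap in both alleles: Rh4 stood at 77.8, 67.7 and 67.2 CPM at 15 d in Lsp2[A10], against 37.4, 54.1 and 61.9 CPM (0.31 ± 0.14), and differed by 0.58 ± 0.14 in Lsp2[B14]. For norpA the differences were 0.02 ± 0.09 in Lsp2[A10] and 0.29 ± 0.09 in Lsp2[B14]; the first is near 0 after scaling by TMM factors, although the CPM values did not overlap.

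ninaE, Rh6 and Arr1 lay higher at 15 d without overlap in Lsp2[B14] and overlapped in Lsp2[A10], and whether the alleles differ in their age change was not tested. In Lsp2[A10] 2 members were higher and 2 lower without overlap, where 40.3% of all genes were higher, 19.8% lower and 44.6% called. In Lsp2[B14] 5 were higher and 2 lower, where 32.6% of all genes were higher, 18.6% lower and 38.1% called. The medians were −0.29 and 0.00. Age and deposited table coincide, so an effect of age and a difference between the tables cannot be told apart.

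Of the other 30 pathway genes, 1 rose and 14 fell in Lsp2[A10], and 3 rose and 9 fell in Lsp2[B14]. The test called 44.6% and 38.1% of all genes in these comparisons. ninaD fell by 2.02 ± 0.24 (adjusted p 3.22e-05) and 2.09 ± 0.24 (2.4e-05), Gbeta76C by 1.29 ± 0.15 (2.28e-05) and 0.95 ± 0.14 (0.000269), and rdgA, the diacylglycerol kinase of photoreceptors, by 0.81 ± 0.12 (0.000157) and 0.48 ± 0.12 (0.00655). Rh5 rose by 0.53 ± 0.18 in Lsp2[A10] (0.0308) and had −0.16 ± 0.18 in Lsp2[B14] (0.487). Photoreceptor structure and transmitter genes fell in 6 of 7 cases in Lsp2[A10] and 4 of 7 in Lsp2[B14], with summed levels of 89.6 to 105 and 101 to 138 CPM at 15 d, against 164 to 209 and 168 to 226 CPM in young flies. All 6 muscle genes fell in both alleles, with a summed level of 1306 to 1653 CPM at 15 d, against 7657 to 10090 CPM in young flies. The part of these cell types in the members' values was not tested.

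The polysome fraction holds transcripts with several ribosomes, and a level there relative to total RNA was taken as a measure of ribosome loading. Members differed widely in this ratio within a group. In Lpp[TS]>w1118, trp had the highest ratios, 1.91 and 1.70, and ninaE the lowest, 0.427 and 0.421. trp and Rh6 each lay above 1 in all but 1 of the 24 replicates, inaC lay below 1 in all 24 and ninaE below 1 in 23. Every ratio is between shares of libraries and carries no absolute amount.

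**Figure D5:**
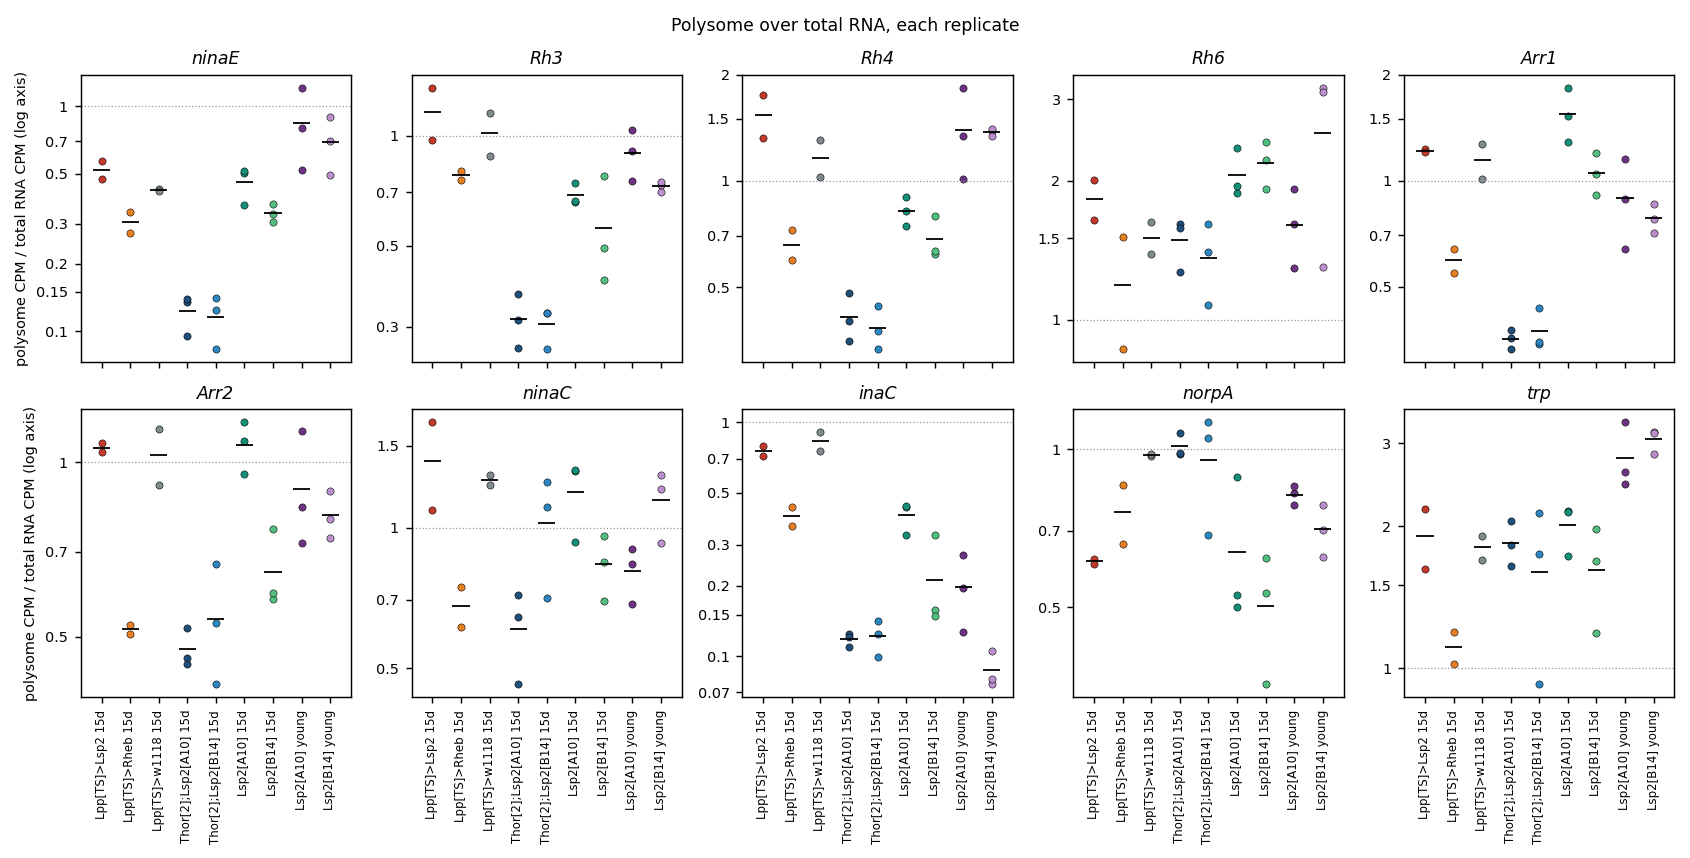
Polysome level over total RNA level within a replicate (CPM over CPM, log axis) for each gene by group; each point is a replicate, each solid line a group mean and the dotted line a ratio of 1. ninaE stands between 0.0833 and 0.14 in the 2 Thor[2] groups, and trp reaches 2.46 to 3.32 in young flies.

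In the Thor[2] groups the polysome ratios of most members stood lower. ninaE had ratios of 0.0951, 0.135 and 0.139 in Thor[2];Lsp2[A10], against 0.363, 0.506 and 0.517 in Lsp2[A10], a difference of −1.82 ± 0.25 in log2. Arr1 had 0.358, 0.377 and 0.333 in Thor[2];Lsp2[A10], against 1.28, 1.52 and 1.84 in Lsp2[A10] (−2.04 ± 0.17). Both were also lower without overlap in Thor[2];Lsp2[B14] against Lsp2[B14], by −1.58 ± 0.25 and −1.51 ± 0.17. Rh3 and Rh4 differed by −1.04 ± 0.19 and −0.92 ± 0.17 with Lsp2[A10] and by −0.84 ± 0.19 and −0.84 ± 0.17 with Lsp2[B14]. norpA stood higher: 0.98, 1.08 and 0.982 in Thor[2];Lsp2[A10], against 0.886, 0.529 and 0.501 in Lsp2[A10] (0.78 ± 0.21), and 0.88 ± 0.21 in Lsp2[B14]. trp overlapped in both alleles (−0.05 ± 0.22 and −0.09 ± 0.22).

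The ratio shares its total RNA libraries with the RNA comparison. From the shortest to the longest class, the median change of the ratio over all genes was −0.68, −0.30, 0.07 and 0.62 with Lsp2[A10]. With Lsp2[B14] it was −0.77, −0.30, 0.18 and 0.78. No member lies in the shortest class. The part of transcript length was not tested. Of the members 1 was higher and 8 lower without overlap with Lsp2[A10], where 21% of all genes were higher, 30.9% lower and 41% called. With Lsp2[B14] 1 was higher and 6 lower, where 21.5% of all genes were higher, 27.3% lower and 43.6% called. The medians were −0.99 and −0.67, beside −0.06 and 0.00 over all genes. The level in the polysome libraries was also lower: ninaE stood at 270, 338 and 516 CPM of the polysome libraries in Thor[2];Lsp2[A10], against 696, 915 and 860 CPM in Lsp2[A10].

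Other pathway genes split in the same comparisons, 3 higher and 10 lower of 30 with Lsp2[A10] and 6 higher and 8 lower with Lsp2[B14]. Called in all were 13 and 14 of 30, near the 41% and 43.6% called of all genes. The ratio of rtp, which encodes a binding partner of the NINAC protein, fell by 2.74 ± 0.21 (adjusted p 3.84e-09) and 2.55 ± 0.20 (3.45e-08), and 20.5% of its exon length overlaps another gene. That of pinta, a retinoid-binding protein of pigment cells, fell by 2.12 ± 0.23 (2.52e-07) and 1.98 ± 0.23 (6.13e-07). That of rdgA rose by 1.71 ± 0.25 (1.31e-05) and 1.85 ± 0.25 (5.55e-06).

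In Lpp[TS]>Rheb all 10 members had lower polysome ratios than in Lpp[TS]>w1118, and 0% of 12796 genes tested were called. This ratio too shares its total RNA libraries with the RNA comparison. The members summed to 5529 to 6074 CPM in total RNA, against 3784 to 4655 CPM. In the polysome libraries they summed to 2322 to 2932 CPM, against 2867 to 3141 CPM. Polysome levels of ninaE overlapped, at 851 and 1133 CPM, against 950 and 1146 CPM. inaC had ratios of 0.433 and 0.359 in Lpp[TS]>Rheb, against 0.912 and 0.756 in Lpp[TS]>w1118 (−0.97 ± 0.23). Arr2 had 0.506 and 0.523, against 1.14 and 0.915 (−0.87 ± 0.40), and Arr1 had 0.548 and 0.642, against 1.27 and 1.01 (−0.81 ± 0.44). Both Rheb replicates lay below both reference replicates for 9 members, and overlapped for Rh6; 22.8% of all genes were lower without overlap. The median was −0.63 over members, beside 0.04 over all genes, and lay between −0.95 and −0.44 when single libraries were left out. edgeR called 0 of 30 other pathway genes, with 3 at an unadjusted p under 0.05 and 0 called by DESeq2. In Lpp[TS]>Lsp2 the median was 0.29. norpA stood at −0.53 ± 0.20, and inaC at 0.03, turning to −0.13 with library totals and −0.03 with relative log expression factors. Over all genes the median change of this ratio was 0.37 in the shortest length class and −0.26 in the longest, which holds norpA. The part of transcript length was not tested here either. Without overlap 3 members were higher and 1 lower, where 14.8% of all genes were higher, 34% lower and 0% called, and of the 30 other genes edgeR and DESeq2 called 0, with 1 at an unadjusted p under 0.05. Without the first Lpp[TS]>Lsp2 replicate edgeR called 4 of them.

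Between the alleles the ratio of inaC stood higher in Lsp2[A10] at both ages. It was 0.434, 0.439 and 0.33 at 15 d in Lsp2[A10], against 0.158, 0.148 and 0.328 in Lsp2[B14] (0.91 ± 0.23), and 0.271, 0.196 and 0.127 in young Lsp2[A10], against 0.0759, 0.0798 and 0.105 in young Lsp2[B14] (0.96 ± 0.24). Every Lsp2[A10] replicate lay above every Lsp2[B14] replicate of its age, by little at 15 d. Arr1 and Arr2 were also higher without overlap at 15 d (0.44 and 0.62), where 15.2% of all genes were higher. In young flies 2 members were higher and 1 lower without overlap, where 26.6% of all genes were higher and 10% lower, and with Thor[2] all 10 overlapped, where 14.7% of all genes did not. The test called 0% of all genes at 15 d, 0.0687% in young flies and 0.0904% with Thor[2]. edgeR and DESeq2 called 0 of 30 other pathway genes in all 3 comparisons, with 3, 7 and 0 at an unadjusted p under 0.05. Fractions of one replicate come from the same powder, and with the replicate number as a block 6 of 30 were called in young flies, 2 higher and 4 lower; without young Lsp2[B14] replicate 1 the count was 4.

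At 15 d against young flies the ratios of trp and ninaE stood lower and that of inaC higher. Age and deposited table coincide here too. From the shortest to the longest length class, the median change of the ratio over all genes was 0.54, 0.23, −0.04 and −0.26 with Lsp2[A10]. With Lsp2[B14] these medians were 0.44, 0.20, 0.02 and −0.09. No member lies in the shortest class. The part of transcript length was not tested. trp had ratios of 1.73, 2.16 and 2.14 at 15 d in Lsp2[A10], against 3.32, 2.61 and 2.46 in young flies (−0.30 ± 0.17), and 1.97, 1.19 and 1.69 at 15 d in Lsp2[B14], against 3.17, 3.15 and 2.85 (−0.80 ± 0.17). ninaE differed by −0.62 ± 0.24 and −0.89 ± 0.24, and inaC by 1.23 ± 0.26 and 1.28 ± 0.27. These 3 genes, Rh4 (lower) and Arr1 (higher) did not overlap between ages in either allele. Without overlap 3 members were higher and 4 lower in Lsp2[A10], where 19.9% of all genes were higher, 25.3% lower and 29.7% called. In Lsp2[B14] 2 were higher and 4 lower, where 21.2% of all genes were higher, 23.8% lower and 30% called. Of the other 30, 10 rose and 6 fell, and 4 rose and 8 fell; the ratio of Galphaq, the G protein alpha subunit of the cascade, fell by 0.70 ± 0.21 (adjusted p 0.0162) and 1.52 ± 0.21 (3.14e-05), with 44.1% of its exon length shared with another gene.

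The monosome fraction separated the members once more. The arrestins lay higher in polysomes than in monosomes in the Lpp[TS] lines, Arr1 with polysome over monosome ratios of 2.07 and 2.19 in Lpp[TS]>Rheb, against 2.18 and 1.93 in Lpp[TS]>w1118. Rh3 lay below 1 in every replicate of every group, with 0.56 and 0.763 in Lpp[TS]>Rheb, against 0.693 and 0.68 in Lpp[TS]>w1118. The first monosome library of Thor[2];Lsp2[A10] stood apart, with 152 CPM of ninaE against 841 and 782 CPM in the other replicates, and the polysome over monosome ratio of ninaE was 1.78 in that replicate and 0.402 and 0.66 in the others.

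Across the 24 total RNA libraries the members did not move as one. The 45 pairs had a median Pearson r of 0.238 on the log scale, 16 pairs lay above 0.5 and 18 below 0. Arr1 and Arr2 were the most alike (0.923), ninaC and trp reached 0.869 and Rh3 and Rh4 0.842, while Rh3 and norpA had −0.77. The libraries share groups and depth, so these values describe the data and carry no p. The non-members most like the members' mean profile, of 11456 genes, were Pph13, a homeodomain transcription factor of photoreceptors (0.885), t (tan), an enzyme that recycles the transmitter histamine (0.88), inaD (0.853), CarT, a carcinine transporter of photoreceptors (0.852), and stops, which acts in the termination of the light response (0.842). The next were Phae1, a serine protease (0.84), CG5597 (0.839), Culd, a protein of rhodopsin trafficking (0.828), Ggamma30A (0.824) and NimB5, a Nimrod family gene (0.82). Within the 12 allele libraries at 15 d their values were 0.795 to 0.934.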

How the data were processed

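The files hold whole-number counts of reads per gene in 3 tables, deposited by the authors, with no normalization. Per the submitters' processing notes, fastp 0.23.2, Bowtie2 2.3.4.1, STAR 2.2.1, featureCounts 1.6.0, R 4.2.0 and the build BDGP6 were used; their roles, the strand setting and the treatment of reads that map to several places are not given in the sources used here. Per the labels, poly(A) RNA was read as 150-base paired ends. FBgn identifiers were matched to symbols and coordinates with the BDGP6.54 annotation, and no member's exons overlap another gene.

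The Lpp[TS] table also lists transposable elements, which were tested with its genes. Levels are CPM, a count over the library total times 1000000. Differences were fitted with edgeR 4.0.16 (quasi-likelihood, TMM factors, filterByExpr, robust, prior count 0.125) in R 4.3.3, with Benjamini-Hochberg adjustment over all genes tested and a threshold of 0.05. Polysome ratios were tested as the interaction of group and fraction in one model. DESeq2 1.42.0 was an alternative, beside relative log expression factors, library totals, no filter, a replicate block, the compared groups alone and leaving out each library. The fits were tested on simulated data. Standard errors are of the log2 change, taken as its size over the square root of the quasi-likelihood F statistic. They rest on spread shared over the groups and genes of a fit, not on the replicates of 1 gene alone. CPM ratios carry no TMM factor.

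The members and all gene lists were chosen with earlier results of these data known. Of the other phototransduction genes, the text names inaD, trpl, Galphaq, Gbeta76C, Ggamma30A, rdgA, rdgB, ninaA, Rh2 and Rh5 where a result turns on them, up to 5 further genes with the largest change among those called, the white gene, and the 10 genes most like the members; inaE in Lsp2[A10] is named from outside that rule, for its value in Lsp2[B14]. Likeness used log2 CPM with a prior count of 0.5. Replicate numbers were not treated as pairs between groups (correlations of deviations −0.505 to 0.213). Between the young alleles the correlations were all positive (0.213, 0.091 and 0.17). The value of −0.505 was that of Lpp[TS]>Lsp2 against Lpp[TS]>w1118. Shared replicate batches are therefore not excluded. The fractions of a replicate came from the same ground powder, per the labels' protocols, and correlated at −0.036 to 0.801. The fits carry no replicate block; the blocked value is printed where it moves a count. All 63 pairs of replicate libraries differed by more than sampling noise, with a chi-square of at least 6.54 per degree of freedom.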

Additional observations from a re-analysis of the deposited data

Results flagged for a closer look

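The Thor[2] effect on RNA differed between the Lsp2 alleles, by an edgeR interaction test adjusted over all genes, for 4 of the other pathway genes: Gbeta76C (0.55), inaD (0.65), Pld (1.23) and santa-maria (1.36), each in log2 and higher in Lsp2[A10]. Pld, a phospholipase D, changed sign with the background. It stood at 38.9, 39.2 and 37.5 CPM in Thor[2];Lsp2[A10] and 23.3, 21.3 and 26.6 CPM in Thor[2];Lsp2[B14], against 28.4, 23.9 and 29.5 CPM in Lsp2[A10] and 33.3, 37.7 and 42.2 CPM in Lsp2[B14]. Its Thor[2] effect was 0.70 with Lsp2[A10] and −0.53 with Lsp2[B14], and its allele difference was 0.72 within Thor[2] and −0.51 without. The allele difference of santa-maria was 0.57 within Thor[2] and −0.79 without. The difference between those allele differences is the same interaction. The polysome-to-total ratio of Galphaq differed between Lsp2[A10] and Lsp2[B14] by 0.54 at 15 d and by −0.28 in young flies, with all replicates on opposite sides; whether these differ was not tested, and 44.1% of the exon length of Galphaq is shared with another gene.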

How the results depend on the processing

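Library totals in place of TMM factors moved the median of all genes by over 0.1 in 17 of 28 comparisons (−0.23 to 0.27), and relative log expression factors in 0 of 28; 15 and 3 of 280 member values changed sign. With library totals the members' median was 0.48 in Lpp[TS]>Rheb against Lpp[TS]>w1118, 0.60 in Thor[2];Lsp2[A10] against Lsp2[A10] and −0.13 at 15 d against young in Lsp2[A10], and that of the polysome ratio in Lpp[TS]>Lsp2 against Lpp[TS]>w1118 was 0.13. Within groups the polysome-to-total median was then 0.24 in Lpp[TS]>Lsp2, −0.57 in Lpp[TS]>Rheb, 0.093 in Lpp[TS]>w1118 (−0.18 with TMM factors, the other sign) and −1.18 in Thor[2];Lsp2[A10], and for the alleles without Thor[2] −0.094 (A10, against 0.02, again the other sign) and −0.60 (B14) at 15 d and −0.33 in young Lsp2[B14]. In Lpp[TS]>Lsp2 the main value of 0.12 became 0.076 with relative log expression factors and with DESeq2, 0.14 with no filter and 0.12 with the replicate block.

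The count of other pathway genes called in Lpp[TS]>Rheb against Lpp[TS]>w1118, 1 as reported, was 3 with DESeq2, 0 with the replicate block and 11 with the compared groups alone. Between the alleles it was 1 with library totals and 1 with the compared groups alone at 15 d, and 1 with DESeq2 and 1 with the replicate block in young flies. The interaction count was 2 with library totals. Within Lpp[TS]>Rheb the polysome-to-total count was 1 with library totals, against 6. With the replicate block it was 10 within Lpp[TS]>w1118, against 6, and 6 for the allele difference of the ratio in young flies; the block moved no other count of calls by over 1.5 times. Exchanging the replicate numbers of Lpp[TS]>Lsp2, an alternative added after seeing the data, gave 1 call over all genes and 0 among pathway genes.

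Leaving out single libraries gave counts of 0 to 11 in Lpp[TS]>Lsp2 and 0 to 0 in Lpp[TS]>Rheb against Lpp[TS]>w1118, 1 to 2 between alleles at 15 d, 0 to 1 in young flies and 2 to 7 for the interaction. For the polysome ratio they were 0 to 4 in Lpp[TS]>Lsp2 and 0 to 4 between young alleles, and 0 to 0 within Lpp[TS]>Rheb and within Lpp[TS]>w1118. The members' medians ran from 0.036 to 0.42 and from 0.39 to 0.68 in Lpp[TS]>Lsp2 and Lpp[TS]>Rheb, from −0.11 to 0.17 between young alleles and from −0.45 to −0.17 with age in Lsp2[A10]. For the polysome ratio they ran from 0.13 to 0.42 in Lpp[TS]>Lsp2, −0.95 to −0.44 in Lpp[TS]>Rheb, −1.15 to −0.91 in Thor[2];Lsp2[A10] and −0.94 to −0.51 in Thor[2];Lsp2[B14], and within groups from 0.015 to 0.18 in Lpp[TS]>Lsp2 and −1.04 to −0.61 in Lpp[TS]>Rheb. Where a group was left with 1 library, that library was assumed to vary like the others. Except where a setting itself removes libraries, the cause was not tested. The lowest member count was 56 in total RNA (Rh6, Lpp[TS]>Rheb), 55 in the polysome and 15 in the monosome fraction (both inaC, young Lsp2[B14]).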
